A study of Mus musculus with 36 samples.

Results

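The glucocorticoid receptor (GR) mutants compared here were GRD/D, which has threonine in place of an alanine in the dimer interface of the DNA-binding domain (D), and GRD+L/D+L, which carries D together with alanine in place of an isoleucine in the ligand-binding domain (L). The question was what the added L mutation removed from the dexamethasone (Dex) response that was left in GRD/D. The members were 12 of the 36 RNA-seq libraries of the series, all of run 1, chosen by their labels. They comprised 3 vehicle and 3 Dex libraries of each mutant. All were made from homozygous mouse embryonic fibroblasts (MEFs), primary cells grown out of embryos, of the strain FVB/NJ by the labels, exposed for 5 h to Dex, a synthetic glucocorticoid, at 1 μM or to the solvent alone (vehicle). Each genotype was represented by 3 cultures from different mice. D was shared by all 12 libraries, so no GR allele in these cells was free of it. The L change was introduced by CRISPR/Cas9 into zygotes that already carried D, together with a silent change used for genotyping, and the GRD+L line goes back to 1 founder pup that was backcrossed to FVB/NJ. Homozygous GRD/D mice are viable, whereas GRD+L/D+L mice die around birth. GRwt/wt and GRko/ko MEFs of the same run, with 6 libraries each, served as reference. The labels give FVB/NJ for GRko/ko as well, whereas the methods of the study name 129 Sv for that colony.

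GR is a nuclear receptor that waits in the cytoplasm in a complex with chaperones such as Hsp90 and moves into the nucleus once a glucocorticoid binds. There it raises genes such as Fkbp5 and Per1, for which binding as a dimer to palindromic response elements is the classical route, and it lowers inflammatory and growth factor genes, often at sites held by AP-1 or NF-kB. In fibroblasts glucocorticoids are known for lowering prostaglandin and cytokine production and for changing matrix synthesis.

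The 12 libraries held 15280359 to 19102035 counts, and no pair of replicates was a near-copy, since the counts of a pair differed by 1.39 to 5.32 times the sampling noise over 12 pairs. The mutants were unequal in this. Pairs lay at 3.01 to 5.32 in GRD/D vehicle, 1.962 to 2.115 in GRD/D Dex and 1.39 to 1.70 in GRD+L/D+L. The edgeR fit shares its estimate of the spread across groups, so this imbalance bears on its p-values and counts. Genes on the 19 autosomes are described, of which 14301 passed the filter on low counts. Fibroblast markers were abundant in both mutants, with the sum of 10 genes at 19850 to 28000 CPM (counts relative to the TMM-scaled library size) in GRD/D and 19160 to 20060 in GRD+L/D+L. Of these 10, 2 passed as lower at least 2-fold in GRD+L/D+L vehicle, as did 546 of all 14301 autosomal genes. In the edgeR test of the response difference 3 of the 10 had an unadjusted p under 0.05, against 10.9% of all autosomal genes, and none passed. The mutants also differed in sex and in the levels of marker genes of other cell types. All 6 GRD/D libraries held Xist (2464 to 5468 counts) and at most 10 counts of 4 Y-linked genes summed, while all 6 GRD+L/D+L libraries held at most 9 counts of Xist and 2372 to 2687 of the Y-linked genes. Sex and genotype therefore cannot be told apart. The summed level of 10 macrophage markers was 652 to 770 CPM in GRD/D and 31.9 to 41.4 in GRD+L/D+L, against 184 to 324 in GRwt/wt and 2510 to 2948 in GRko/ko. All 10 were lower at least 2-fold in GRD+L/D+L vehicle, against 546 of all 14301 autosomal genes. None was at 0 in either mutant, and 3 stayed under 1 CPM in every GRD+L/D+L library. Fewer macrophages and less RNA per macrophage cannot be told apart in bulk RNA. None of the 10 passed the test of the response difference, and none reached an unadjusted p under 0.05 in it. Neural markers, of which nestin (Nes) made up most, summed to 391 to 459 CPM in GRD/D and 774 to 887 in GRD+L/D+L. Of 5 tested, 2 passed as higher at least 2-fold in GRD+L/D+L vehicle, against 468 of all 14301 autosomal genes. The list did not agree, since vehicle Sox2 stood at 2.17, 2.29 and 2.43 CPM in GRD/D and 1.46, 1.17 and 1.25 in GRD+L/D+L. Endothelial markers summed to 4.62 to 7.46 CPM in GRD/D and 15.1 to 18.6 in GRD+L/D+L, without overlap. Of 3 tested, 1 passed as higher at least 2-fold in GRD+L/D+L vehicle. Kdr and Emcn made up most of the endothelial sum, and 5 of the 6 genes stayed under 1 CPM in GRD/D and 4 in GRD+L/D+L. Epithelial markers summed to 2.48 to 4.06 and 3.25 to 5.19, and cartilage markers to 17.2 to 30.0 and 18.1 to 27.8. Skeletal muscle markers summed to 459 to 621 and 651 to 773 CPM. Acta1 and Des made up nearly all of this sum, and the other 4 genes stayed under 1 CPM in both mutants. Smooth muscle markers, which mark activated fibroblasts as well, summed to 9272 to 11020 and 11080 to 11920. The part of these differences between the mutants in the results was not tested. Vehicle replicates 2 and 3 of GRD/D stood apart, with a mean deviation from their group of 0.103 and 0.109 on the log2 scale, against 0.0562 to 0.0713 in the other 10 libraries. Col1a1, a collagen chain, shows this, at 6135 CPM in vehicle replicate 2 and 11760 in vehicle replicate 3.

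Dex left a smaller response in the double mutant than in GRD/D. At an adjusted p of at most 0.05 and a change of at least 2-fold, 147 autosomal genes passed in GRD/D, 99 raised and 48 lowered, which is 1.03% of those tested. In GRD+L/D+L 60 genes passed, 40 raised and 20 lowered, which is 0.42%. Without the limit on the fold change, the counts were 1801 and 791. Of the 60 genes of the double mutant, 31 were among the 147 of GRD/D, all in the same direction, which is 51.7% of the shorter list and 21.1% of the longer one. GRko/ko MEFs, which lack the receptor, had 0 genes at an adjusted p of at most 0.05 by edgeR, with 810 at an unadjusted p under 0.05. With both GRD/D vehicle libraries that stood apart left out, which leaves 1 vehicle library whose spread is taken from the other groups, 97 genes passed in GRD/D and 66 in GRD+L/D+L.

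**Figure D1:**
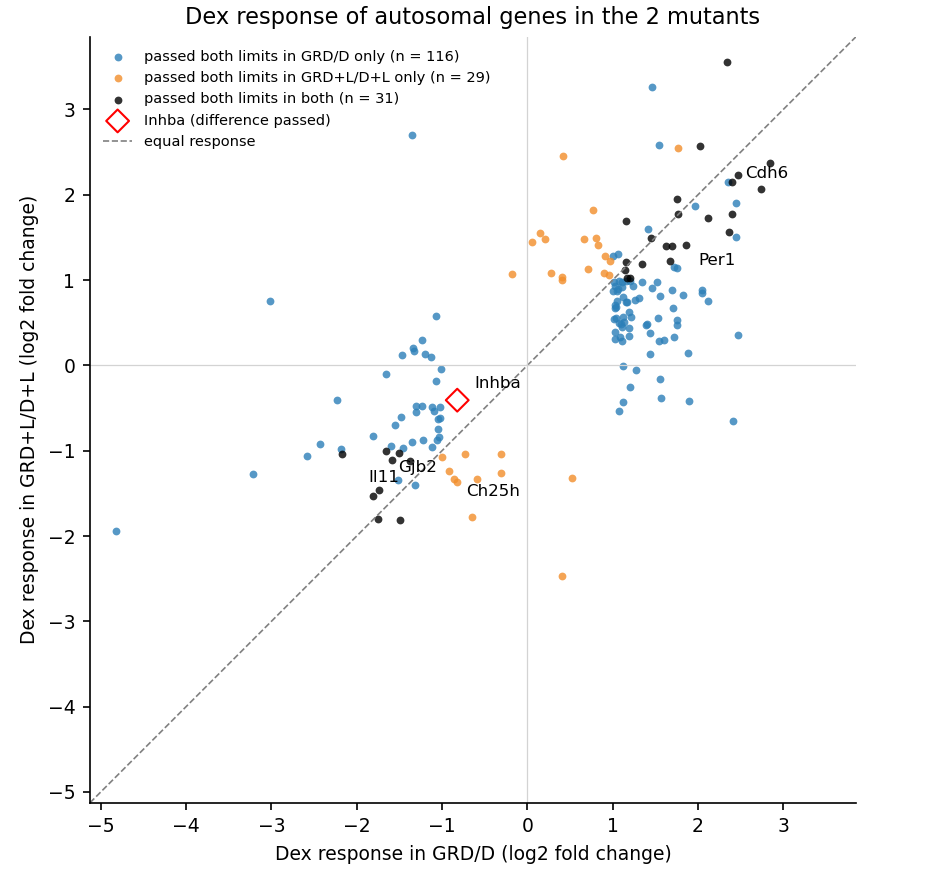
Dex response (log2 fold change against vehicle) of the 176 autosomal genes that passed an adjusted p of at most 0.05 and a 2-fold change in GRD/D (x axis) or GRD+L/D+L (y axis); each point is a gene and the dashed line marks equal responses. The 116 genes that passed in GRD/D only lie nearly all on the side of the line toward 0 on the y axis, the 29 that passed in GRD+L/D+L only lie on the other side, and both sets were chosen on the values plotted.

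Each of these lists was chosen on its own response and so favours the mutant it was chosen in. The 99 genes raised in GRD/D had a median log2 change of 1.39 there and 0.85 in GRD+L/D+L, and the 48 lowered had medians of -1.36 and -0.79. The response in the direction of the list was weaker in the double mutant, or absent, for 87 of the 99 and 45 of the 48. Chosen the other way round, the 40 genes raised in GRD+L/D+L had medians of 1.46 there and 1.16 in GRD/D, and 15 of them were weaker in the double mutant. The 20 lowered had medians of -1.29 and -0.96, and 7 of them were weaker in the double mutant.

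A list that neither mutant had chosen gave a narrower gap. In GRwt/wt of run 1, whose libraries do not enter the difference, 280 autosomal genes passed both limits (1.96% of those tested), 172 raised and 108 lowered. The 172 raised genes had a median log2 response of 1.47 in GRwt/wt, 0.42 in GRD/D, 0.34 in GRD+L/D+L and -0.025 in GRko/ko. The 108 lowered genes had medians of -1.32, -0.65, -0.50 and 0.061 in the same order. The GRwt/wt medians are favoured by the choice of the genes, those of the mutants are not. On both lists the medians of the mutants lay closer to each other than to that of GRwt/wt, an order that this choice favours. Of the 172 raised genes, 75 passed the adjusted p in GRD/D, 55 in GRD+L/D+L, and 53 in both. Of the 108 lowered, 49 passed in GRD/D, 42 in GRD+L/D+L, and 38 in both. The fitted response in the direction of GRwt/wt was weaker in the double mutant than in GRD/D for 105 of the 172 genes (61.0%) and for 72 of the 108 (66.7%), genes with an opposite response included. Over all autosomal genes the median difference was -0.0067, and 51.7% of the differences lay below 0. A response difference at an unadjusted p under 0.05 was found for 22 of the raised genes (12.8%), 20 of them weaker in the double mutant, and for 16 of the lowered (14.8%), 15 of them weaker, against 10.9% of all autosomal genes tested.

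Measured per library, as the median distance of the 172 raised genes from the vehicle mean of the same genotype on the log2 CPM scale, the GRD/D Dex libraries stood at 0.448, 0.430 and 0.462, and the GRD+L/D+L Dex libraries at 0.352, 0.392 and 0.323. For the 108 lowered genes the GRD/D Dex libraries stood at -0.637, -0.625 and -0.546 and the GRD+L/D+L Dex libraries at -0.537, -0.476 and -0.491. The 3 libraries of one mutant did not overlap those of the other on either list, by a narrow margin on the lowered one. These values carry the spread of the Dex libraries only, since the vehicle mean is common to the 3. The response of the double mutant had the smaller median on both lists under each of 24 alternative settings.

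**Figure D2:**
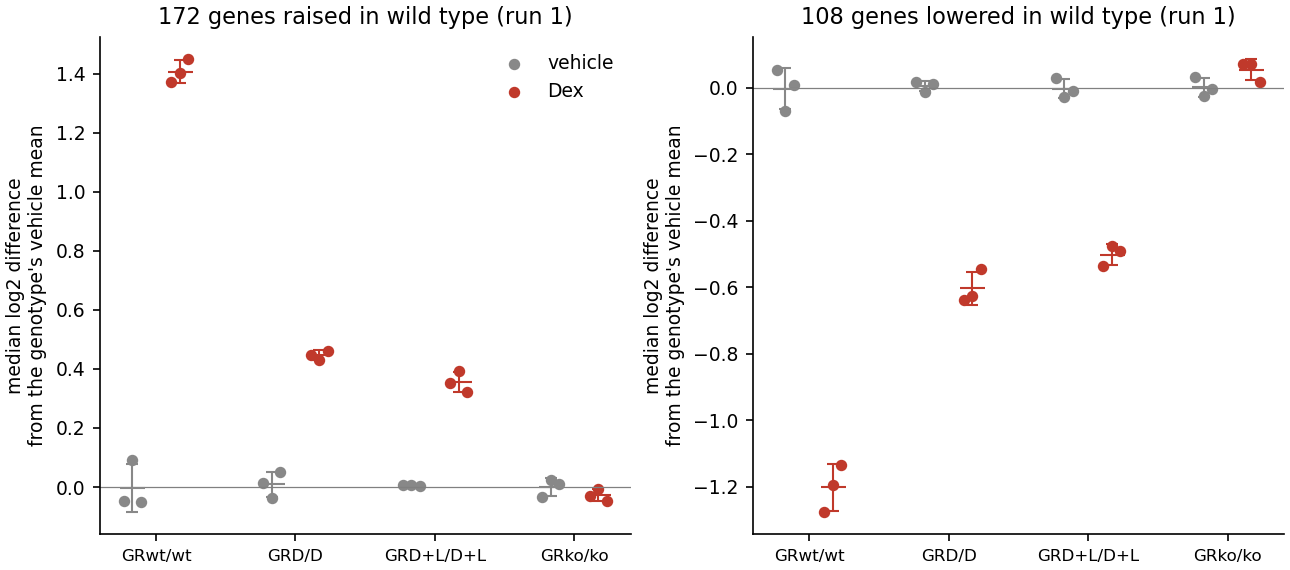
Median log2 difference from the vehicle mean of the same genotype, per library, over the 172 genes raised (left) and the 108 genes lowered (right) by Dex in GRwt/wt of run 1; points are libraries (vehicle in grey, Dex in red), and the horizontal mark with bars is the mean and SD of 3 libraries. The GRwt/wt values are high by the choice of the genes, the GRD+L/D+L Dex libraries lie closer to 0 than those of GRD/D, and GRko/ko stays near 0.

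Gene by gene, the difference of the 2 responses (GRD+L/D+L minus GRD/D, tested as an interaction by edgeR's quasi-likelihood F test) passed an adjusted p of at most 0.05 for 1 autosomal gene, Inhba, which is 0.00699% of those tested. The unadjusted p was under 0.05 for 1554 genes, 10.9%, of which 515 had a fitted rise in GRD/D and a response of smaller size, in either direction, in GRD+L/D+L, 622 a fitted fall in GRD/D and a response of smaller size, and 417 a response at least as large in the double mutant. DESeq2 called 55 genes on the same counts, 13, 39 and 3 of these kinds. It gave no adjusted p for 8840 genes, so its adjustment covered fewer genes than that of edgeR. With a replicate block, a term for each genotype and replicate number, edgeR called 5 autosomal genes. They were Inhba (adjusted p = 0.0117), Fgf7 and Ptgs2 (both 0.0275), and Ugdh and Tmem119 (both 0.0313). Vehicle and Dex were given to the same 3 cultures of a genotype by the description of the study, but no label used here ties a replicate number to a culture. A further 7 autosomal genes shared an adjusted p of 0.0501, and 27 genes in all lay at 0.1 or below. Of these 27, 20 had a fitted fall in GRD/D and a response of smaller size in the double mutant, which was above 0 for 6 of them, 5 had a fitted rise in GRD/D and a smaller one in the double mutant, and 2 a response at least as large in size there. DESeq2 called 20 of the 27 and gave no adjusted p for the other 7. The limit of 0.1 was chosen after the p-values were seen. The count at 0.05 moved with single libraries. It was 60 without GRD/D vehicle replicate 3, 29 without GRD/D Dex replicate 1, 18 without GRD/D vehicle replicate 1, 14 without GRwt/wt vehicle replicate 2, 3 without GRD/D vehicle replicate 2, and 0 without any one of GRD/D Dex replicates 2 and 3 and the 6 GRD+L/D+L libraries. With both outlying GRD/D vehicle libraries left out it was 0. Among the 10722 autosomal genes whose mean count reached 50, the 95% interval of the difference reached less than 0.5 to either side, on the log2 scale, for 95.2%, with a median of 0.215. A gene that did not pass is therefore bounded by its interval and not shown to respond alike.

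Inhba encodes the subunit of activin A, a secreted ligand of the TGF-beta family, and lies on the plus strand at chr13:16011851-16031621 (mm10). In GRD/D it stood at 1854, 1965 and 1922 CPM with vehicle and at 1144, 1051 and 1054 with Dex. In GRD+L/D+L it stood at 1779, 1849 and 1838 CPM with vehicle and at 1369, 1370 and 1382 with Dex. The vehicle levels lay slightly lower in the double mutant, by 0.071 on the log2 scale (edgeR adjusted p = 0.280), and every Dex library of the double mutant lay above every Dex library of GRD/D. Dex lowered it by a log2 change of -0.82 ± 0.051 (SE, n = 3 against 3 libraries) in GRD/D and -0.41 ± 0.051 in GRD+L/D+L, against -0.95 in GRwt/wt and 0.047 in GRko/ko. The difference of 0.41 (95% interval 0.27 to 0.56) had an adjusted p of 0.0322 by edgeR. It stayed between 0.37 and 0.46 under 24 alternatives, with adjusted p from 2.7e-09 to 0.276, at most 0.05 under 13 of them. With the p-values adjusted over the autosomal genes alone it was 0.0515, since the table holds an X-linked gene that also passed. The 250 bases upstream of the RefSeq start of Inhba (GRCm38.p6, chr13:16011601-16011850, plus strand) are shown because this gene carries the one called difference, beside those of Il11 (chr7:4778142-4778391, minus strand, one of 2 starts in the table), an interleukin gene that fell in both mutants. The motifs searched on both strands were the half-site AGAACA of the glucocorticoid response element, the AP-1 site TGANTCA and the cAMP response element TGACGTCA, and matches are in capitals.
Inhba: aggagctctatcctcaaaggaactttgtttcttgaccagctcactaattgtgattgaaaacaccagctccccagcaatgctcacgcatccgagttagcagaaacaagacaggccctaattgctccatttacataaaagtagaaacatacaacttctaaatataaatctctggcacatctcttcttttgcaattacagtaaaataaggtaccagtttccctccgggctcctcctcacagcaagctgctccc
Il11: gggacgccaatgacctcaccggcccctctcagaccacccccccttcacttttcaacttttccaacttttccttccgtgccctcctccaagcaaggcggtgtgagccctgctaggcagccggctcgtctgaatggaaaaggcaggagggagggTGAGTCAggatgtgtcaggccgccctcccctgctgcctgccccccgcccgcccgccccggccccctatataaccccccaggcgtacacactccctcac
None of these letters was found in the Inhba window, and the Il11 window shown held an AP-1 match, 98 to 92 bases before the start, whereas the window of the other Il11 start held no match. AGAACA was present in 16.1% of all 32851 windows of this length and in 10.5% of those of autosomal genes tested, TGANTCA in 6.75% and 4.78%, and TGACGTCA in 1.55% and 2.56%, with no overlap between the motifs in these 2 windows. In the genes at an adjusted p of at most 0.1, of which 18 had a window, AGAACA was in 0 of 27 windows, TGANTCA in 2 and TGACGTCA in 0. For the 31 genes that passed in both mutants, of which 19 had a window, the counts were 2, 4 and 1 of 24 windows. These matches say nothing of binding.

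At an adjusted p of at most 0.1, another 19 genes had a fitted fall in GRD/D and a response of smaller size in the double mutant. They held intracellular proteins as well as secreted factors and receptors, and these shares were not set against those of all genes. Arhgap29, Pde4d, Uba6, Samd5 and Jade1, not described further, were among them. Apart from Inhba, the genes named for a difference at this level were chosen after their values were seen, since the adjusted p of each lay above 0.05. Fgf7, a growth factor that fibroblasts make for epithelium, stood at 79.9, 85.9 and 72.5 CPM with vehicle and 39.1, 39.2 and 38.5 with Dex in GRD/D. In GRD+L/D+L it stood at 70.2, 73.9 and 73.6 and at 52.3, 47.6 and 54.9. Its Dex levels did not overlap between the mutants while its vehicle levels did. The log2 responses were -1.03 ± 0.072 and -0.49 ± 0.071, and the difference was 0.54 (95% interval 0.33 to 0.74, edgeR adjusted p = 0.0501). Ptgs2, the cyclooxygenase that glucocorticoids lower in inflammation, went from 1123, 1208 and 1146 to 657, 597 and 574 CPM in GRD/D and from 1286, 1249 and 1292 to 860, 855 and 895 in GRD+L/D+L. All 6 GRD+L/D+L values lay above those of GRD/D under the same treatment. Its log2 responses were -0.93 and -0.55, with -1.12 in GRwt/wt, and the difference was 0.37 (95% interval 0.22 to 0.53, edgeR adjusted p = 0.0561). Thbd (thrombomodulin) fell by 0.56 in GRD/D and by 0.25 in GRD+L/D+L on the log2 scale, and Timp3, a metalloproteinase inhibitor, by 0.59 and 0.35. Fbxo32, a ubiquitin ligase known from muscle wasting, fell by 0.95 in GRD/D and by 0.40 in GRD+L/D+L, with an edgeR adjusted p of 0.0501 for the difference. Nrp1, a co-receptor for VEGF, fell by 0.51 in GRD/D and had a log2 response of -0.17 in GRD+L/D+L that did not pass (edgeR adjusted p of that response 0.0743).

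A further set fell in GRD/D and did not pass in the double mutant. Tfrc, the transferrin receptor, went from 106, 119 and 112 to 91.5, 74.7 and 70.8 CPM in GRD/D, a log2 response of -0.51, and from 59.0, 58.4 and 54.2 to 57.9, 56.2 and 56.6 in GRD+L/D+L, a log2 response of -0.0077. Its vehicle level was lower in the double mutant by 0.98 on the log2 scale, so its fall in GRD/D started from a higher level. Npy1r, a receptor for neuropeptide Y, had log2 responses of -0.72 and 0.079, Ereg, an EGF family ligand, -0.38 and -0.027, and Cdc27, a subunit of the anaphase-promoting complex, -0.37 and -0.050. Pcm1, a protein of centriolar satellites, had -0.28 and 0.080, Kpna1, a nuclear import receptor, -0.21 and 0.077, and Ranbp2, a nuclear pore protein, -0.29 and 0.14. Of the 27 genes at an adjusted p of at most 0.1, 12 had their highest level of all 12 libraries in GRD/D vehicle replicate 2, one of the libraries that stood apart. In 20 of the 27 the vehicle level differed between the mutants at an adjusted p of at most 0.05, against 39.5% of all autosomal genes. In none of them did it differ 2-fold, against 7.09%. The vehicle libraries also enter the response difference by which the 27 were chosen. These shares are therefore not independent of that choice. What part the starting levels have in the differences was not tested.

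**Figure D3:**
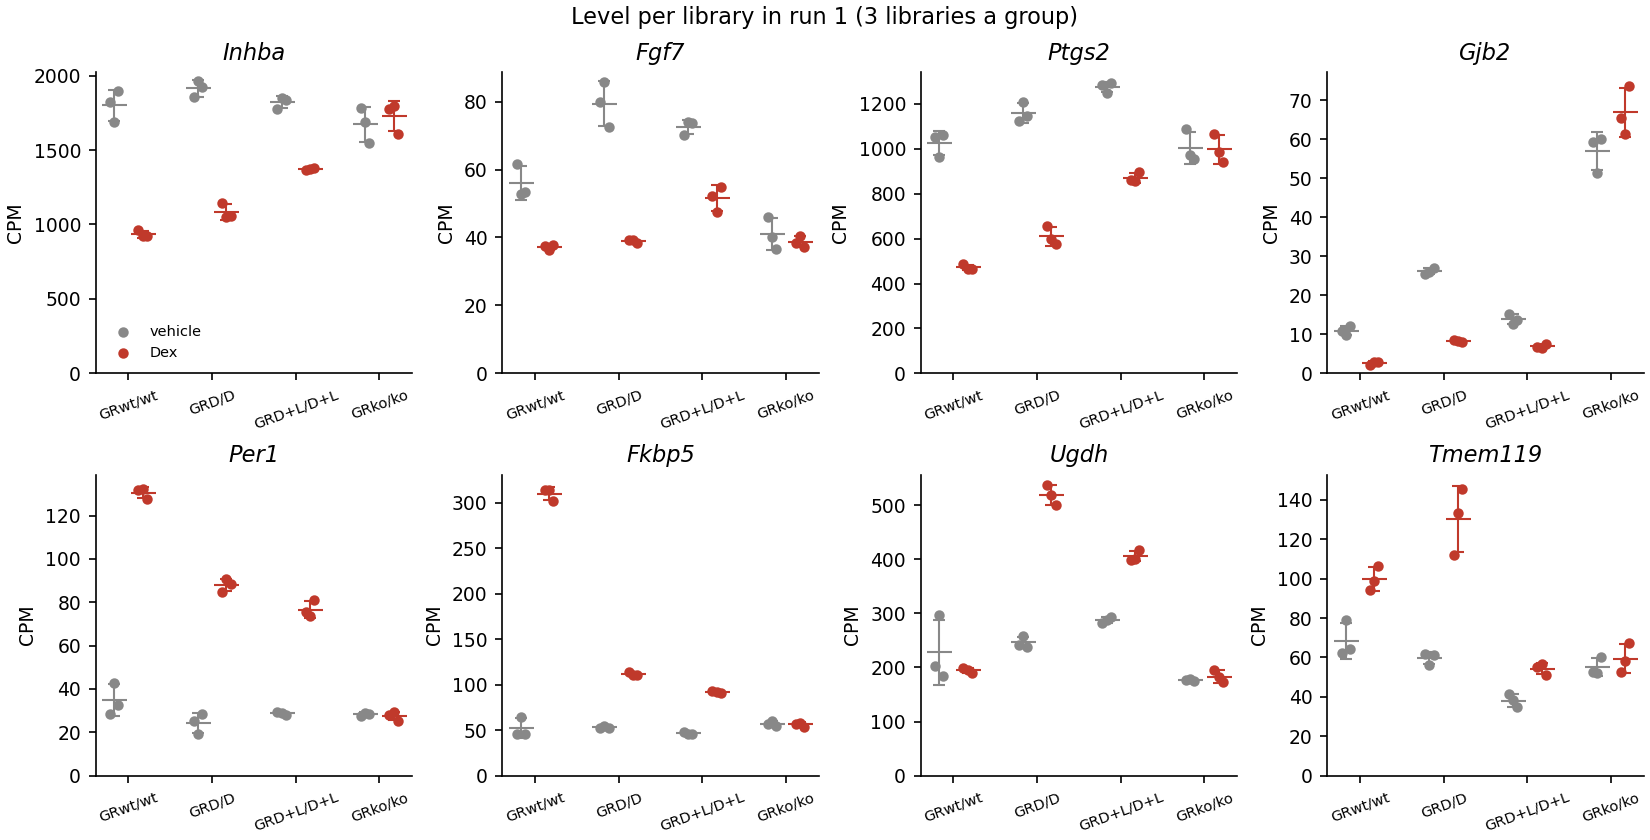
Level (CPM) per library of 8 genes in the 4 genotypes of run 1, with vehicle in grey and Dex in red; points are libraries, and the horizontal mark with bars is the mean and SD of 3. The Dex levels of Inhba, Fgf7 and Ptgs2 lie higher in GRD+L/D+L than in GRD/D, those of Ugdh and Tmem119 lie lower, and Per1 and Fkbp5 rise in both mutants.

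Among genes that Dex raised in GRD/D, the differences at an adjusted p of at most 0.1 belonged to Ugdh, Tmem119, Ablim1, Akr1b3 and Klhl6. Ugdh, which makes the UDP-glucuronic acid used for hyaluronan and other glycosaminoglycans, rose from 242, 258 and 238 to 538, 519 and 501 CPM in GRD/D and from 282, 287 and 293 to 400, 401 and 417 in GRD+L/D+L. Its vehicle levels were higher and its Dex levels lower in the double mutant, without overlap. The log2 responses were 1.08 ± 0.091 and 0.50 ± 0.091, with -0.23 in GRwt/wt, and the difference was -0.58 (95% interval -0.84 to -0.32, edgeR adjusted p = 0.0792). Tmem119, a membrane protein of osteoblasts and microglia, had log2 responses of 1.13 in GRD/D, 0.51 in GRD+L/D+L and 0.54 in GRwt/wt. Ablim1, an actin-binding protein, had 1.52, 0.98 and 1.44, and Akr1b3 (aldose reductase) 0.68, 0.36 and 0.22. Klhl6, a gene known from B lymphocytes, with a mean count of 31.1 over the 12 libraries, had 2.47 in GRD/D and 0.35 in GRD+L/D+L. The summed macrophage markers differed between the mutants as given above, and their part in the Klhl6 difference was not tested. At this level 2 genes had a response at least as large in size in the double mutant. Abca5, a lipid transporter, had a log2 response of 0.026 in GRD/D and 0.37 in GRD+L/D+L (difference 0.35, 95% interval 0.20 to 0.50, edgeR adjusted p = 0.0612). The other was Gm28592, a predicted gene with a mean count of 17.8, with 0.52 and -1.32.

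**Figure D4:**
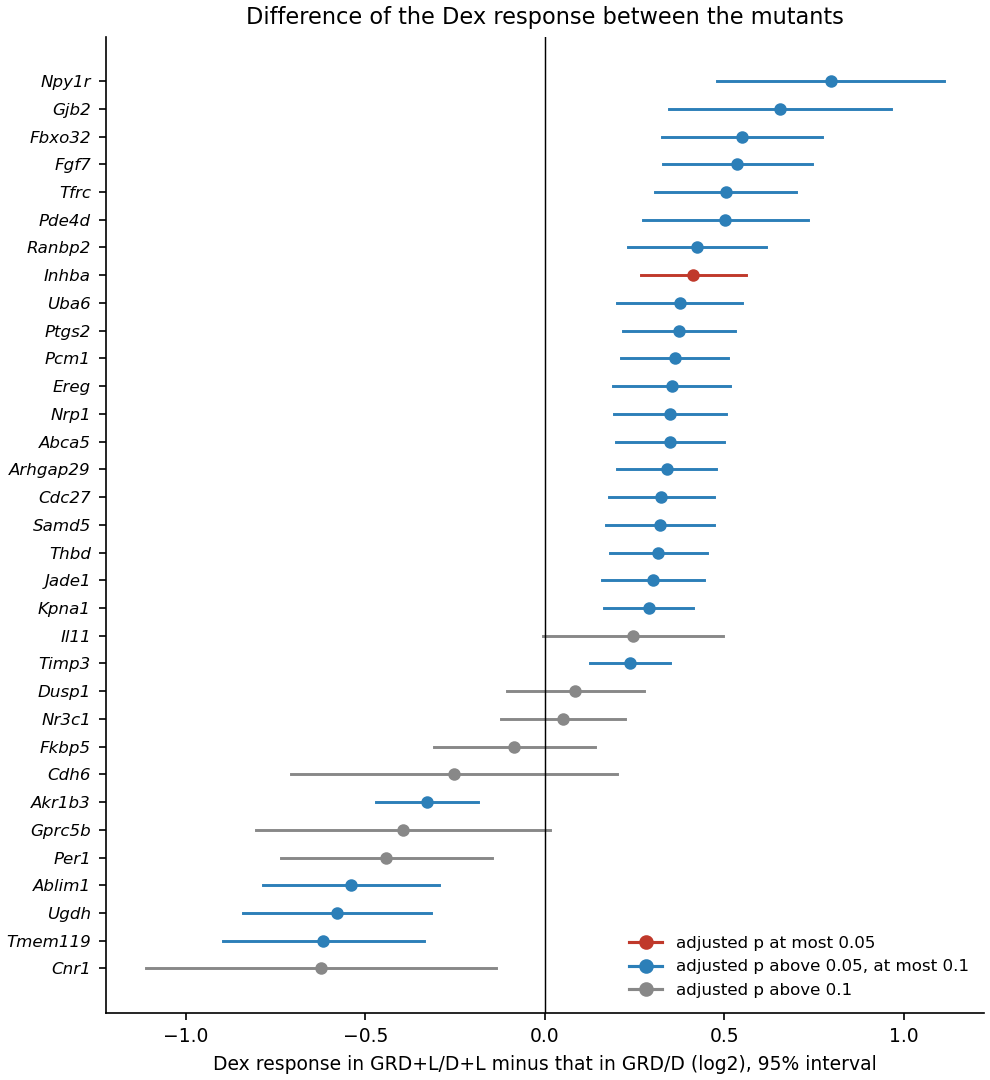
Difference of the log2 Dex response (GRD+L/D+L minus GRD/D) with its 95% interval for 33 autosomal genes, coloured by the adjusted p of the difference; Klhl6 and Gm28592 are left out for their low counts. Values above 0 belong, except for Abca5, to genes whose fitted response in GRD/D was a fall, values below 0 belong to rises that were smaller in the double mutant, and Inhba is the single gene at an adjusted p of at most 0.05.

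The response that both mutants kept was led by Per1, Gjb2, Il11, Gprc5b, Cdh6 and Cnr1, the 6 genes with the smallest adjusted p in GRD/D among the 19 genes past both limits in both mutants whose mean count reached 50. Per1, a repressor of the circadian clock and a direct GR target, rose from 25.3, 19.1 and 28.4 to 84.8, 90.7 and 88.3 CPM in GRD/D and from 29.3, 28.9 and 27.8 to 75.3, 73.6 and 81.0 in GRD+L/D+L. All Dex values of the double mutant lay below those of GRD/D. The log2 responses were 1.86 and 1.42, with 1.91 in GRwt/wt, and the difference was -0.44 (95% interval -0.74 to -0.15, edgeR adjusted p = 0.260). Gjb2, which encodes the gap junction protein connexin 26, fell from 25.5, 26.1 and 26.9 to 8.43, 8.34 and 8.15 CPM in GRD/D and from 15.1, 12.7 and 13.8 to 6.66, 6.56 and 7.58 in GRD+L/D+L. The Dex levels were close while the vehicle level was lower in the double mutant, and the log2 difference was 0.65 (95% interval 0.35 to 0.96, edgeR adjusted p = 0.0912). Il11, a cytokine of the interleukin-6 family, fell by 1.37 and 1.13 on the log2 scale. Cdh6, a cadherin, had log2 responses of 2.40 in GRD/D, 2.15 in GRD+L/D+L and 1.77 in GRwt/wt, and Gprc5b, an orphan receptor, 2.12, 1.72 and 1.07. Cnr1, the cannabinoid receptor of nerve cells, had 2.40, 1.77 and 1.68. None of the 6 differences passed, and the choice by p in GRD/D favours a larger response there. Inhbb, which encodes another activin subunit and was chosen after its values were seen, rose by 1.16 and 1.21 in the mutants, with a log2 response of -0.098 in GRwt/wt.

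For the autosomal genes that the study followed by qPCR, and the mutated gene itself, the Dex response did not differ between the mutants beyond its error. Fkbp5, a co-chaperone that dampens GR, rose from 51.9, 54.5 and 52.8 to 114, 111 and 110 CPM in GRD/D and from 48.1, 45.2 and 45.9 to 93.0, 92.3 and 90.9 in GRD+L/D+L. The log2 responses were 1.07 ± 0.076 and 0.99 ± 0.078, against 2.58 in GRwt/wt, and the difference was -0.085 (95% interval -0.31 to 0.14, edgeR adjusted p = 0.820). Dusp1, a phosphatase that switches off MAP kinases, fell in both mutants, by 0.40 and 0.31 on the log2 scale, with a difference of 0.085 (95% interval -0.11 to 0.28), while its log2 response in GRwt/wt was 0.34. Nr3c1, which encodes GR, had log2 responses of -0.19 and -0.14 with a difference of 0.050 (95% interval -0.12 to 0.22). Its level was higher in GRD+L/D+L vehicle, at 95.5, 95.1 and 90.3 CPM against 69.7, 78.8 and 74.1 in GRD/D, a log2 difference of 0.33 (edgeR adjusted p = 4.1e-05).

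The counts that follow are of list members that passed an adjusted p of at most 0.05 with no fold limit, and the members named as examples were chosen after their values were seen. As background, 6.28% of all autosomal genes passed the adjusted p as raised and 6.31% as lowered in GRD/D, and 3.31% and 2.22% in GRD+L/D+L. Of 29 classical GR-induced genes, 15 rose and 3 fell in GRD/D, and 11 rose and 3 fell in GRD+L/D+L, all 14 of the latter among the former. Sgk1, a kinase, rose by 0.41 in both on the log2 scale, and Klf9, a transcription factor, by 0.37 and 0.42. Cdkn1c, an inhibitor of the cell cycle, had the smallest p of the list, with responses of 1.04 and 0.55 (difference -0.49, edgeR adjusted p = 0.115). The list had a median response of 0.26 in GRD/D and 0.21 in GRD+L/D+L.

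Of 32 genes of inflammation and NF-kB, 1 rose and 9 fell in GRD/D, and 9 fell in GRD+L/D+L, 8 of them in both. Il6 fell by 1.06 and 0.88 on the log2 scale, and Vcam1, an adhesion molecule, by 0.70 and 0.47. Ch25h, an enzyme that makes 25-hydroxycholesterol, went the other way, with log2 responses of -0.86 and -1.34 (difference -0.47, 95% interval -0.85 to -0.089, edgeR adjusted p = 0.352). Of 49 matrix genes, 14 rose and 6 fell in GRD/D, and 5 rose and 4 fell in GRD+L/D+L. The basement membrane collagens Col4a1 and Col4a2 rose by 0.31 and 0.27 in GRD/D and had log2 responses of 0.070 and 0.043 in GRD+L/D+L, neither of which passed. Has2, a hyaluronan synthase, fell by 0.84 and 0.54. The smallest adjusted p of a difference in the matrix list was 0.0912, that of Timp3.

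Of 49 growth factor, Wnt and BMP genes, 12 rose and 13 fell in GRD/D, and 7 rose and 8 fell in GRD+L/D+L, 7 and 7 of them in both. Inhba was the only member called. Grem1, a BMP antagonist, fell by 0.73 and 0.42 on the log2 scale (edgeR adjusted p of the difference 0.115), and Fst, which binds activin, rose by 0.91 and 0.83. Of 31 genes of MAP kinase feedback and immediate early response, 6 rose and 7 fell in GRD/D, and 2 rose and 9 fell in GRD+L/D+L. Junb, a subunit of AP-1, rose by 0.23 in GRD/D and had a log2 response of -0.019 in GRD+L/D+L. Of 17 clock genes, 6 rose and 3 fell in GRD/D, and 3 rose and 1 fell in GRD+L/D+L. Per2 rose by 1.46 and 1.49, and Cry1 by 0.63 and 0.38. Of 34 genes of fuel use and insulin signalling, 4 rose and 7 fell in GRD/D, and 2 rose and 5 fell in GRD+L/D+L. Irs1, an adaptor of the insulin receptor, fell by 0.60 in GRD/D and had a log2 response of -0.19 in GRD+L/D+L.

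The remaining lists gave smaller counts in the double mutant, except for that of GR and its chaperones. Of 30 cell cycle genes, 3 rose and 3 fell in GRD/D and 1 rose in GRD+L/D+L. Of 24 adipogenic regulators, 5 rose and 1 fell in GRD/D and 4 rose in GRD+L/D+L. Of 22 genes of sterol and fatty acid synthesis, 2 rose and 1 fell in GRD/D and 1 rose in GRD+L/D+L. Of 25 genes of GR, its chaperones and steroid handling, Fkbp5 rose and Nr3c1 fell in GRD/D, and 3 rose in GRD+L/D+L, namely Fkbp5, the chaperone Hspa8 with a log2 response of 0.24 and its partner Stip1 with 0.22. Hspa8 and Stip1 had 0.11 and 0.080 in GRD/D, and their differences did not pass. Apart from Inhba, no member of the 11 lists passed the test of the difference at an adjusted p of at most 0.05.

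An unadjusted p under 0.05 for the difference (edgeR) was reached by 1554 autosomal genes, 10.9% of all. Of these, 515 with a fitted rise and 622 with a fitted fall in GRD/D had a response of smaller size in the double mutant. The other 417 had a response at least as large there, so smaller responses were the more frequent over all genes too. These genes were chosen by the same difference, and the mutants were unequally noisy. Vehicle replicates differed by 3.01 to 5.32 times the sampling noise in GRD/D and by 1.44 to 1.57 times in GRD+L/D+L. What part this spread has in the split was not tested. Within the lists, an unadjusted p under 0.05 for the difference was found for 8 of 49 matrix genes, all with a response of smaller size in the double mutant. It was found for 5 of 32 genes of inflammation, 3 smaller and 2 larger, for 6 of 49 growth factor genes, 5 smaller and 1 larger, and for 5 of 30 cell cycle genes, 4 smaller and 1 larger. The counts were 4 of 17 clock genes and 4 of 31 MAP kinase and early genes, all smaller, 4 of 34 genes of fuel use, 3 smaller and 1 larger, and 3 of 29 classical genes, all smaller. The adipogenic list of 24 and the list of GR and its chaperones of 25 held 1 each, both larger, and the sterol list of 22 held 1, which was smaller.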

How the data were processed

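RNA-seq libraries (TruSeq, NextSeq) were mapped to mm10 by the authors with HISAT2 2.1.0, restricted to unique reads and counted per gene with featureCounts 2.0.0, versions per the submitters' processing notes. The deposited table holds raw read counts, whole numbers with no normalization. All its columns were mapped to samples. The strand setting and annotation are not given in the sources used here, so overlapping genes were not separated.

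Symbols and mm10 coordinates came from GENCODE M21 (55141 of 55487 identifiers). In R 4.3.3, edgeR 4.0.16 was used with TMM scaling, filterByExpr on the 24 libraries of run 1 (14817 genes kept, 99.9% of counts) and the quasi-likelihood F test with a term for each of 8 combinations of genotype and treatment. The common dispersion was 0.00249. The study used DESeq2. Benjamini-Hochberg adjustment covered all genes tested. Responses and vehicle differences were called at an adjusted p of at most 0.05 and 2-fold, response differences without a fold limit. SE is the absolute log2 change over the square root of F. Levels are CPM, and per-library medians used log2 CPM with a prior count of 2. The procedure was tested on simulated data. Alternatives are listed in the closing section, DESeq2 1.42.0 among them.

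By the rule, named genes needed a mean count of at least 50 in the 12 libraries and were the called response differences (up to 12 raised and 8 lowered in GRD/D with a weaker response in the double mutant, and 5 others), Fkbp5, Dusp1 and Nr3c1, the 6 with the smallest adjusted p in GRD/D among those called 2-fold in both mutants, and called members of the 11 gene lists. Other genes, Klhl6 and Gm28592 with lower counts among them, were named after their values were seen. The members and lists were chosen with earlier results of these data known. Promoter windows are from RefSeq (GRCm38.p6). Figures used matplotlib 3.10.9.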

Additional observations from a re-analysis of the deposited data

Results flagged for a closer look

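Inhba is named here because its Dex response differed between the mutants by a test of the difference itself, with a log2 difference of 0.41 (GRD+L/D+L minus GRD/D, edgeR quasi-likelihood F test, adjusted p = 0.0322). The call was not firm. Adjusted over the autosomal genes alone, the p of the same test was 0.0515. Under 24 alternatives with edgeR or DESeq2 the adjusted p ran from 2.7e-09 to 0.276 and was at most 0.05 under 13. Inhba fell by 0.82 in GRD/D and by 0.41 in GRD+L/D+L, and its 3 Dex libraries of the double mutant all lay above those of GRD/D. Sex and the level of macrophage markers differ between the mutants in all 12 libraries, cannot be told apart from the genotype, and their part in the difference was not tested.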

How the results depend on the processing

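The order of the 2 mutants in the medians of the GRwt/wt lists was the same under all 24 alternatives, which reuse most of the same libraries. The count of called differences moved. The number of autosomal genes with a called response difference, 1 as reported, was 55 with DESeq2, 117 with no filter on low counts, 7 with the 12 libraries of the mutants alone, 27 at an adjusted p of at most 0.1, and 0 with all 36 libraries and a run term, with adjustment over autosomal genes alone, with a limit of 1 on the log2 difference, or without both GRD/D vehicle libraries 2 and 3, while DESeq2 size factors and the filter of 10 counts in every library kept it at 1. The number ran from 0 to 60 when 1 library was left out. DESeq2 gave no adjusted p for 8840 genes and so adjusted over fewer genes than edgeR. The alternatives at 0.1, without a fold limit, without those 2 libraries and without GRwt/wt vehicle replicate 2 were chosen after seeing the data. The replicate block, with a term for each genotype and replicate number, gave 5 genes (Inhba, Fgf7, Ptgs2, Ugdh and Tmem119), could not be fitted for the vehicle comparison, and moved no other count by over 1.5 times. The numbers were treated as names only, because same-numbered Dex and vehicle libraries had correlated deviations of -0.23, 0.080 and 0.15 in GRD/D and 0.036, 0.074 and 0.10 in GRD+L/D+L, and not every library correlated best with its own number. With at least 10 counts in every library, which leaves 12112 genes, 66 genes passed in GRD/D, 29 in GRD+L/D+L, 360 in the vehicle comparison and 143 in GRwt/wt. Without a fold limit the counts were 1801, 791, 5655 and 2086, and without both GRD/D vehicle libraries GRD/D had 97. Leaving out 1 library gave 123 to 161 genes in GRD/D, 54 to 62 in GRD+L/D+L, 965 to 1037 in the vehicle comparison and 282 to 293 in GRwt/wt. Over genes raised in GRwt/wt, the median of GRD/D (0.42) was 0.44 with the filter of 10 counts, 0.17 with no fold limit and 0.52 without both vehicle libraries, and 0.38 to 0.46 when 1 library was left out. That of GRD+L/D+L (0.34) was 0.39 with the filter of 10 counts, 0.28 with all 36 libraries and 0.13 with no fold limit, and 0.30 to 0.39. Over genes lowered in GRwt/wt, the median of GRD/D (-0.65) was -0.72 with DESeq2, -0.80 with the filter of 10 counts, -0.70 with the 12 libraries, -0.54 with all 36, -0.56 at 0.1 and -0.21 with no fold limit, and -0.72 to -0.55. That of GRD+L/D+L (-0.50) was -0.56 with DESeq2, -0.59 with the filter of 10 counts, -0.42 with all 36 libraries and -0.14 with no fold limit, and -0.55 to -0.46. For single genes the direction of the difference changed once, for Nr3c1 (-0.043 without both vehicle libraries). Of the genes followed, 27 were chosen by the adjusted p of this difference, and the alternatives reuse most of the same libraries. A kept direction was therefore likely in advance for these genes and is no support for it. The causes of the changes between settings were not tested. Depth limits genes of low count, such as Klhl6, whose interval ran from -2.99 to -1.25.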
